A study of Mus musculus with 19 samples.

Results

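Collagen and laminin chain genes encode the polypeptide chains of the fibrils, filaments and sheets of the extracellular matrix. They were taken from the expression tables of mouse cerebellum by symbol, as every collagen chain (Col, a number, a, a number) and every laminin chain (Lama, Lamb or Lamc and a digit). Of 22193 genes, 53 symbols fitted this pattern, 42 of collagen and 11 of laminin chains. The 41 that reached 1 FPKM in at least 3 of the 19 libraries, 33 collagen and 8 laminin genes, are described here. FPKM is the number of fragments per unit of transcript length and of mapped fragments, so levels can be set side by side between genes.

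The tissue was whole cerebellum of C57BL/6 mice at postnatal day 60, in 19 libraries. The labels do not say whether each library came from a separate animal, so p-values measure only the spread between these libraries. In Olig1-Gnas, 8 libraries, a Cre recombinase driven by Olig1, a gene of the oligodendrocyte lineage and other neural progenitors, removed Gnas, which encodes the stimulatory G protein subunit Gsα. In hGFAP-Gnas, 8 libraries, Gnas was removed by Cre under the human GFAP promoter, which is active in astrocytes and in neural progenitors. Ctrl were 3 libraries of wild-type mice without a stated Cre or floxed allele. The series concerns Gsα in medulloblastoma driven by Sonic hedgehog, and the hGFAP-Gnas columns carry the word tumor. A difference from Ctrl is one between whole pieces of knockout and wild-type tissue, and in bulk RNA a change in the number of cells of a type and a change in RNA per cell cannot be told apart.

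Collagen chains assemble in threes into a triple helix. Fibrillar collagens (types I, II, III, V, XI and XXVII) build the cables of connective tissue, and fibril-associated collagens coat these cables. Type IV collagen forms a sheet-like network that, with laminin, makes the basement membrane under endothelium, around pericytes and below the meninges. A laminin is a cross-shaped trimer of 1 α, 1 β and 1 γ chain, and the α chain carries the main sites for cell receptors. In healthy brain both are concentrated in vessel walls and meninges, while the space between neurons holds little fibrillar collagen.

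FPKM summed to 603067 to 689165 per library in Olig1-Gnas, 505739 to 659634 in hGFAP-Gnas and 508329 to 525832 in Ctrl. The number of reads was not given in the sources used here, but steps among the lowest values placed 10 libraries at 0.838 to 1.07 times the depth of Ctrl 2 and 9 at 0.268 to 0.429 times. A Gnas level of 0 was listed for 1 of 3 Ctrl libraries in the Olig1-Gnas table and for 2 in the hGFAP-Gnas table. Among the knockouts it was listed for 3 of 8 libraries (Olig1-Gnas) and 7 of 8 (hGFAP-Gnas), so a 0 alone does not mark a knockout. Above 0, Gnas read 24.0 to 121 FPKM in Olig1-Gnas, 40.9 in hGFAP-Gnas and 651 to 798 in Ctrl. Library hGFAP-Gnas 1 stood apart, with a summed level of 5 granule neuron markers of 1013 FPKM and of 5 genes of dividing cells of 13.9 FPKM. The other 7 hGFAP-Gnas libraries held 72.4 to 729.5 FPKM of the granule neuron markers, with libraries 7 (729.5) and 2 (587) the highest, and 244 to 652 FPKM of the genes of dividing cells. The same 5 genes of dividing cells summed to 434 to 911 FPKM in Olig1-Gnas and 1.81 to 2.12 FPKM in Ctrl, and the granule neuron markers to 38.3 to 352 FPKM in Olig1-Gnas and 1348 to 1752 FPKM in Ctrl. Results that change without that library are given both ways. Within groups, Olig1-Gnas 1 and 2, hGFAP-Gnas 5 and 6, and Ctrl 1 and 2 were the most alike pairs, with a robust SD of the log2 difference over well-expressed genes of 0.16 in Olig1-Gnas, 0.163 in hGFAP-Gnas and 0.131 in Ctrl, where Ctrl 3 stood at 0.275 from both others.

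The promoters of 3 genes on which the results below turn are printed here, as the 250 bases before and the 50 bases from the start site on, from RefSeq on build GRCm38.p6. Col4a1 and Col4a2 encode the chains of the commonest type IV collagen and lie on opposite strands, with start sites 21 bases apart. Col4a1 starts at 11312826 and runs to lower coordinates. Col4a2 starts at 11312805 and runs to higher ones, so the first bases of both genes overlap. The windows chr8:11312777-11313076 (minus strand, Col4a1) and chr8:11312555-11312854 (plus strand, Col4a2) overlap in 78 bases, shown in capitals on each strand. These are the last bases of each window and include the 50 from each start site on. Lama5, at chr2:180225810-180226109 on the minus strand, is shown because it had the largest log2 difference of the 41 genes in both knockouts, and its capitals mark each GGGCGG (GC box) on either strand.
Col4a1: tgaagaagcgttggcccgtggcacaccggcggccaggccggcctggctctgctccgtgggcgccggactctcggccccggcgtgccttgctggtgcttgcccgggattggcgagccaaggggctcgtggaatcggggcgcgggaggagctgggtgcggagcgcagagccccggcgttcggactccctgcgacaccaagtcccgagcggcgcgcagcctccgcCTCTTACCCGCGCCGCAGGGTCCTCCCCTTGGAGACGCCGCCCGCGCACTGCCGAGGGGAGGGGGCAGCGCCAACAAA
Col4a2: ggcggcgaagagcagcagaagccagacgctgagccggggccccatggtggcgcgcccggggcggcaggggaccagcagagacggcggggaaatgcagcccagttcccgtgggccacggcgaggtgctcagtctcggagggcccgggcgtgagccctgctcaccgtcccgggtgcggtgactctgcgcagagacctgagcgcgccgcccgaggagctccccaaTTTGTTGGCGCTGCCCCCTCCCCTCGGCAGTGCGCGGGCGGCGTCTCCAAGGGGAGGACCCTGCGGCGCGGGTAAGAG
Lama5: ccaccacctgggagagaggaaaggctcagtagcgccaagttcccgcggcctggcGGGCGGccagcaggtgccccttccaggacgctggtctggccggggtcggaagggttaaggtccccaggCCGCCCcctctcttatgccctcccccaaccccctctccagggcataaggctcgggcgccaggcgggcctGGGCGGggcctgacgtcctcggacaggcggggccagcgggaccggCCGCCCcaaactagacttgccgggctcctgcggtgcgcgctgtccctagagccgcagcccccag

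Of the 41 genes, 32 had a promoter in that table, with 35 sequences of 300 bases. A GC box, GGGCGG on either strand, was present in 23 of the 35 (65.7%), against 35.7% of all 32851 promoters of this length. Col4a1 had 1, Col4a2 had 3 and Lama5 had 4, none overlapping another searched motif in Lama5. CCAAT occurred in 34.3% of these sequences, against 37.4% of all promoters, and TATAAA in 11.4%, against 13.6%. GACCACCCA, a sequence bound by GLI factors, occurred in 0 of the 35 and in 0.253% of all promoters. These matches are letters in a window and were not set against binding data.

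The order of levels differed between the groups. In Olig1-Gnas the highest mean was that of Lama5, a laminin α chain of vessel basement membranes, at 83.8 ± 67.9 FPKM (SD, n = 8) and 25.5% of the summed FPKM of the 41 genes. Lama5 was second in hGFAP-Gnas at 19.5 ± 11.4 FPKM (n = 8) and number 26 in Ctrl at 1.52 ± 0.651 FPKM (n = 3). Col9a3, a chain of type IX collagen, was second, first and second in Olig1-Gnas, hGFAP-Gnas and Ctrl. Col18a1, the source of the endostatin fragment, was number 7, number 4 and number 1 in the same order of groups. Summed over the collagen genes the mean level was 209 ± 29.2 FPKM in Olig1-Gnas, 192 ± 42.8 FPKM in hGFAP-Gnas and 131 ± 7.41 FPKM in Ctrl. The laminin genes summed to 122 ± 61.2 FPKM in Olig1-Gnas, 63.9 ± 15.8 FPKM in hGFAP-Gnas and 39.8 ± 2.22 FPKM in Ctrl. At 1 FPKM or above in all 19 libraries stood 18 of the 41 genes.

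**Figure D1:**
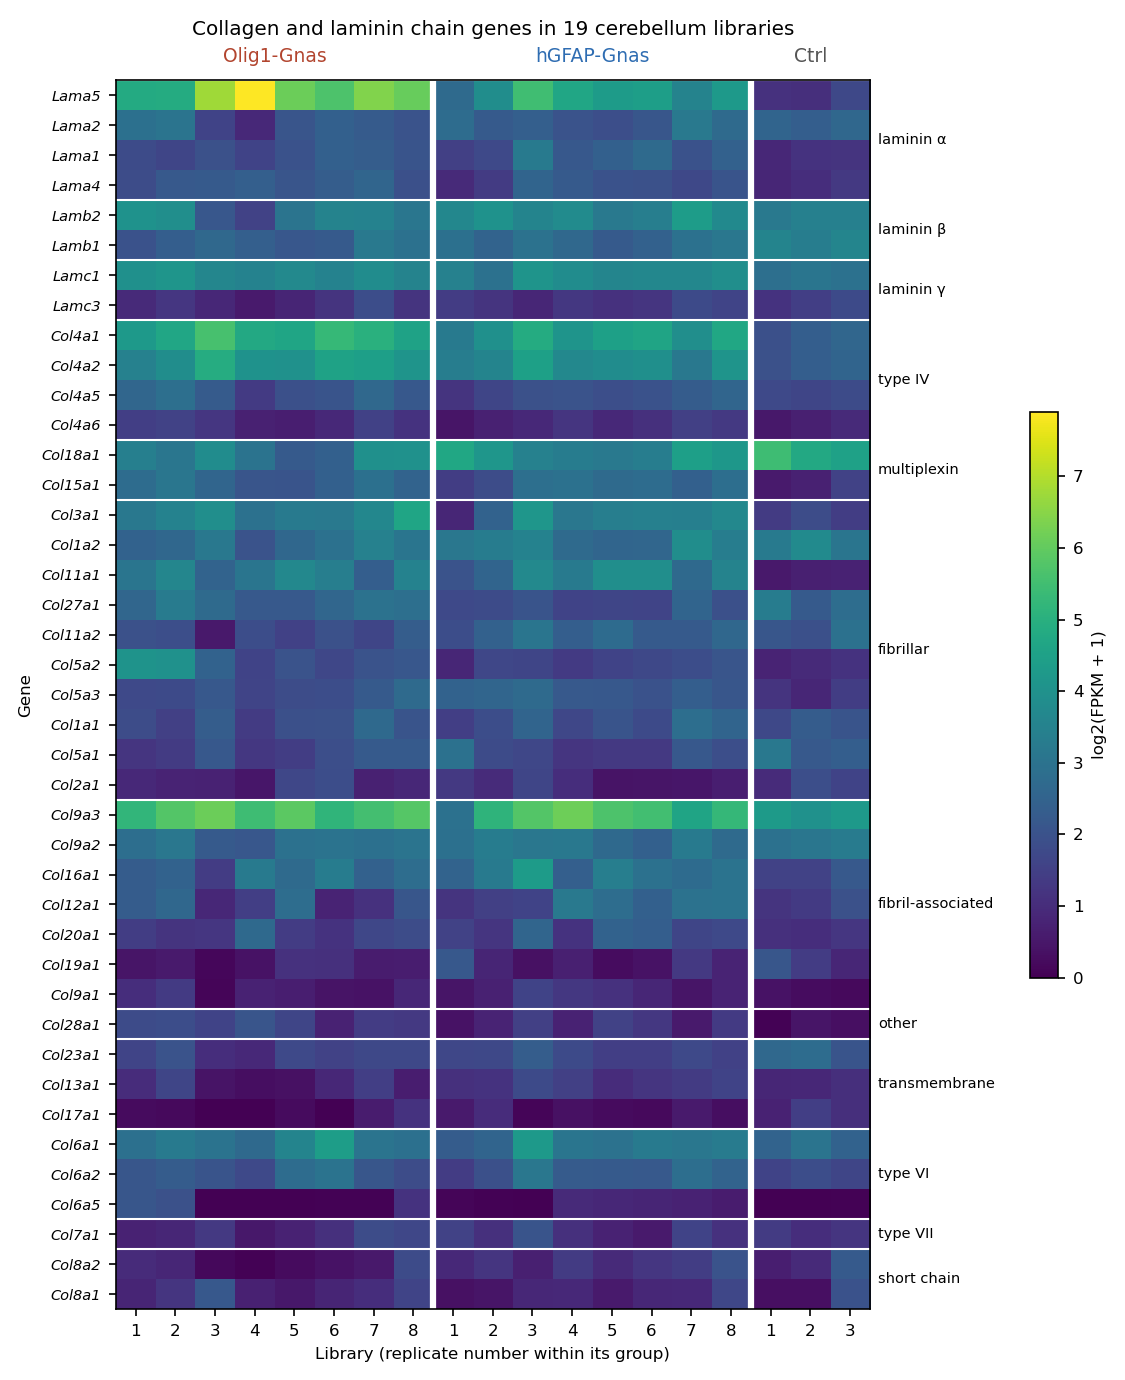
Level of the 41 genes in each library as log2(FPKM + 1), with genes grouped by role down the page and Olig1-Gnas, hGFAP-Gnas and Ctrl libraries from left to right. Lama5, Col4a1 and Col4a2 are brighter in the knockout libraries, and Col18a1 and Lamb1 are brighter in Ctrl.

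Each knockout was compared with Ctrl on log2(FPKM + 1) with limma, and genes counted as called when p, adjusted over all 14591 genes past the same minimum, was under 0.05. In Olig1-Gnas 13 of the 41 genes were higher and 6 lower than in Ctrl, while 58.7% of all genes were called, 35.3% higher and 23.4% lower. In hGFAP-Gnas 11 were higher and 5 lower, while 38.3% of all genes were called, 25.8% higher and 12.5% lower. Of the 41 genes, 46.3% were called in Olig1-Gnas, below the share of all genes, and 39.0% in hGFAP-Gnas, near it. Without any overlap with Ctrl, 13 were higher and 3 lower in Olig1-Gnas, where the shares of all genes were 31.6% and 21.3%, and 8 were higher and 1 lower in hGFAP-Gnas, where they were 15.2% and 8.42%. The median log2 difference of the 41 genes was 0.42 in Olig1-Gnas, against 0.21 over all genes, and 0.41 in hGFAP-Gnas, against 0.19. Of the 41 genes, 10 were called higher in both knockouts and 4 lower in both, and 20 were called in neither. The same joint shares over all genes were not counted, so these joint counts cannot be read as particular to the 41 genes. Both comparisons used the same 3 Ctrl libraries, so they are not independent.

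The level of all genes bore on these counts. Quantile normalization moved the median of all genes to 0.05 in Olig1-Gnas and -0.01 in hGFAP-Gnas, and that of the 41 genes to 0.23 in Olig1-Gnas and 0.18 in hGFAP-Gnas. The share of higher calls among all calls was then 50.4% in Olig1-Gnas, against 60.1% as deposited, and 49.1% in hGFAP-Gnas, against 67.3%. On that scale 13 of the 41 genes were higher and 7 lower in Olig1-Gnas, with 4272 higher and 4197 lower of all 14591 genes (58% called). In hGFAP-Gnas 7 of the 41 were higher and 6 lower, with 2613 higher and 2710 lower of all genes (36.5% called). On upper quartile scaling the share of higher calls among all calls was 51.6% in Olig1-Gnas and 58.1% in hGFAP-Gnas. Of the 41 genes, 13 were then higher and 7 lower in Olig1-Gnas, with 4321 higher and 4060 lower of all genes (57.4% called). In hGFAP-Gnas 9 of the 41 were higher and 5 lower, with 3225 higher and 2324 lower of all genes (38% called). The minimum also touched the counts, since 5 genes (Col11a1, Col28a1, Col4a6, Col6a5 and Col9a1) reached 1 FPKM in no Ctrl library and could pass only through the knockouts. Without hGFAP-Gnas 1, 18 were higher and 7 lower in that knockout, and 56.6% of all genes were called. Without Ctrl 1 or Ctrl 2, 5 of the 41 genes were higher in hGFAP-Gnas, with 0 lower without Ctrl 1 and 1 lower without Ctrl 2, while 6.91% of all genes were called without Ctrl 1 and 5.39% without Ctrl 2. With Ctrl 1 and Ctrl 2 averaged and counted as 1 library, an alternative chosen after seeing the data, 11 were higher and 4 lower in Olig1-Gnas (49.4% of all genes called). In hGFAP-Gnas 5 were then higher (Lama5, Col4a1, Col4a2, Col11a1 and Col5a3) and 0 lower by limma (6.35% of all genes called), with 17 of the 41 and 5639 of all genes at an unadjusted p under 0.05.

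**Figure D2:**
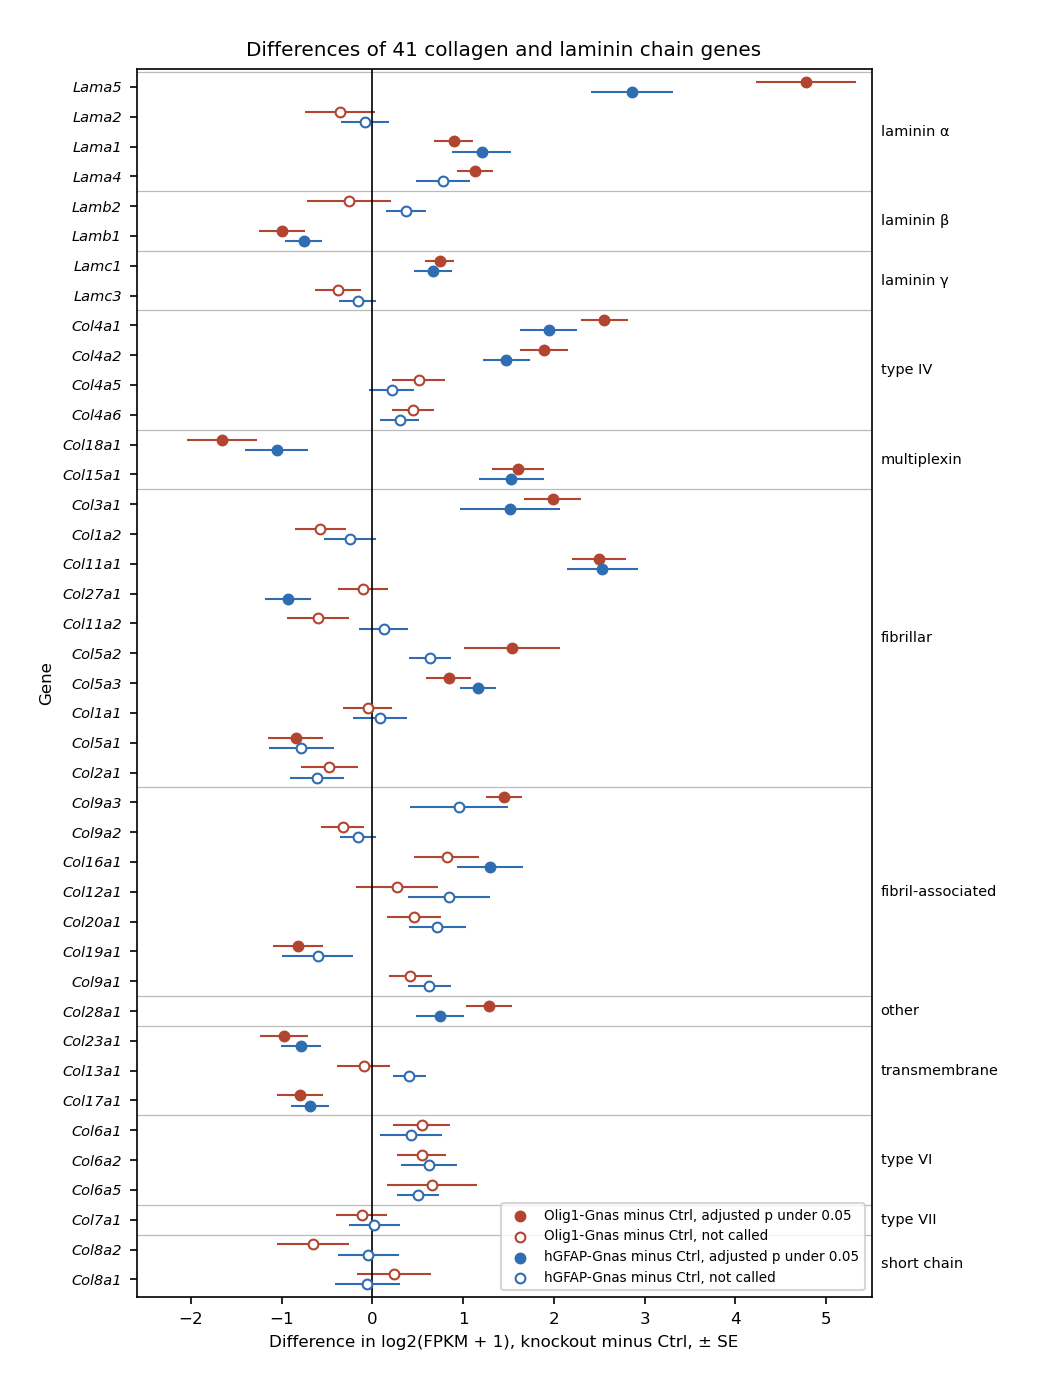
Difference in log2(FPKM + 1) between each knockout and Ctrl for the 41 genes, with Olig1-Gnas above hGFAP-Gnas in each row, bars of 1 SE and filled points for genes called at an adjusted p under 0.05. Lama5, Col4a1, Col11a1, Col4a2, Col3a1 and Col15a1 lie furthest right in both knockouts, and Col18a1 lies furthest left.

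Type IV collagen was higher in both knockouts through its main pair of chains, Col4a1 and Col4a2, and the other 2 genes of the class were not called. Col4a1 (chr8:11198423-11312826 on mm9) ran from 18.2 FPKM over a median of 25.4 to 47.4 in Olig1-Gnas and from 8.52 over 18.8 to 28.2 in hGFAP-Gnas, against 2.77, 4.17 and 5.10 in Ctrl 1, 2 and 3. Every knockout library lay above every Ctrl library, and Olig1-Gnas 3 and hGFAP-Gnas 3 were the highest. The log2 difference was 2.56 ± 0.26 (SE; adjusted p = 6.92e-06) in Olig1-Gnas and 1.94 ± 0.32 (adjusted p = 0.00618) in hGFAP-Gnas. Col4a2 (chr8:11312829-11449287 on mm9) ran from 10.01 over 15.8 to 28.9 FPKM in Olig1-Gnas and from 7.87 over 12.6 to 21.6 in hGFAP-Gnas, against 2.90, 4.16 and 4.78 in Ctrl. These groups too did not overlap, with log2 differences of 1.89 ± 0.27 (adjusted p = 8.9e-05) in Olig1-Gnas and 1.48 ± 0.26 (adjusted p = 0.00717) in hGFAP-Gnas.

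The balance of the pair was also compared. The ratio of Col4a1 to Col4a2 was 1.40 to 1.82 in Olig1-Gnas, with 0.930 to 1.78 in hGFAP-Gnas, against 0.954, 1.00 and 1.07 in Ctrl 1, 2 and 3. All knockout libraries but hGFAP-Gnas 1 lay above the Ctrl ratios. This ratio was chosen after its values were seen and was not tested. Col4a5, a chain of the type IV network of kidney, lung and smooth muscle, ran from 1.51 over 3.67 to 6.45 FPKM in Olig1-Gnas and from 1.27 over 2.92 to 4.93 in hGFAP-Gnas, against 2.38, 2.12 and 2.50 in Ctrl. The groups overlapped, and the log2 differences of 0.51 (adjusted p = 0.153) in Olig1-Gnas and 0.21 (adjusted p = 0.515) in hGFAP-Gnas were not called, although without Olig1-Gnas 4 that of Olig1-Gnas reached an adjusted p of 0.0351. Col4a6, the partner of Col4a5, stood at 0.598 to 1.96 FPKM in Olig1-Gnas, 0.364 to 1.80 in hGFAP-Gnas and 0.423 to 0.910 in Ctrl, with neither difference called.

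Among the 4 laminin α genes, 3 were higher in Olig1-Gnas and 2 in hGFAP-Gnas, against 35.3% of all genes in Olig1-Gnas and 25.8% in hGFAP-Gnas. Lama5 (chr2:179911078-179960564 on mm9), whose product is the α chain of laminin-511, ran from 27.6 over 67.0 to 238 FPKM in Olig1-Gnas and from 5.61 over 18.7 to 43.4 in hGFAP-Gnas, against 1.18, 1.10 and 2.27 in Ctrl. All 16 knockout libraries lay above all Ctrl libraries, and Olig1-Gnas 4 held the highest value, with 108 FPKM in the next library, Olig1-Gnas 3. The log2 difference was 4.78 ± 0.55 (adjusted p = 2.53e-05) in Olig1-Gnas and 2.86 ± 0.45 (adjusted p = 0.00617) in hGFAP-Gnas. Lama1, the α chain of the laminin of early embryos, ran from 2.02 over 2.90 to 4.41 FPKM in Olig1-Gnas and from 1.82 over 3.92 to 8.51 in hGFAP-Gnas, against 0.858, 1.22 and 1.29 in Ctrl. Neither knockout overlapped Ctrl, with log2 differences of 0.89 ± 0.21 (adjusted p = 0.00326) in Olig1-Gnas and 1.20 ± 0.32 (adjusted p = 0.0182) in hGFAP-Gnas. In hGFAP-Gnas the Lama1 call was lost without Ctrl 1, Ctrl 2 or Ctrl 3, at adjusted p = 0.0565 to 0.0786, and on quantile normalization (0.0537).

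Lama4, the α chain made mainly by endothelium and muscle, ran from 2.59 over 3.66 to 4.94 FPKM in Olig1-Gnas and from 0.926 over 2.90 to 4.85 in hGFAP-Gnas, against 0.819, 1.03 and 1.51 in Ctrl. Olig1-Gnas lay above Ctrl throughout, and hGFAP-Gnas overlapped it. The gene was higher in Olig1-Gnas, by a log2 difference of 1.13 ± 0.20 (adjusted p = 0.000417). In hGFAP-Gnas the log2 difference of 0.78 ± 0.30 (adjusted p = 0.0574) was not called, but without hGFAP-Gnas 1, the lowest library, it was 0.90 (adjusted p = 0.00685), and without hGFAP-Gnas 2 the adjusted p was 0.0449. Lama2, the α chain of muscle and nerve that is mutated in a congenital muscular dystrophy, ran from 0.881 over 3.50 to 7.30 FPKM in Olig1-Gnas and from 2.76 over 3.98 to 8.22 in hGFAP-Gnas, against 4.81, 4.13 and 5.20 in Ctrl. The Ctrl values lay inside the range of both knockouts, with log2 differences of -0.35 (adjusted p = 0.449) in Olig1-Gnas and -0.08 (adjusted p = 0.817) in hGFAP-Gnas.

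The groups differed in which α gene led. As a share of the summed FPKM of all 5 α genes, Lama5 made up 67.2 to 97.0% in Olig1-Gnas, 38.1 to 70.7% in hGFAP-Gnas and 14.2 to 21.4% in Ctrl. Lama2 made up 0.359 to 17.6% in Olig1-Gnas, 6.95 to 40.2% in hGFAP-Gnas and 49.0 to 61.3% in Ctrl. In every Ctrl library Lama2 was the leading α gene, and in every library of Olig1-Gnas it was Lama5. In hGFAP-Gnas 1 the share of Lama2 (40.2%) was above that of Lama5 (38.1%), and in the other 7 libraries of that group Lama5 led. These shares were formed after the values were seen and were not tested.

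**Figure D3:**
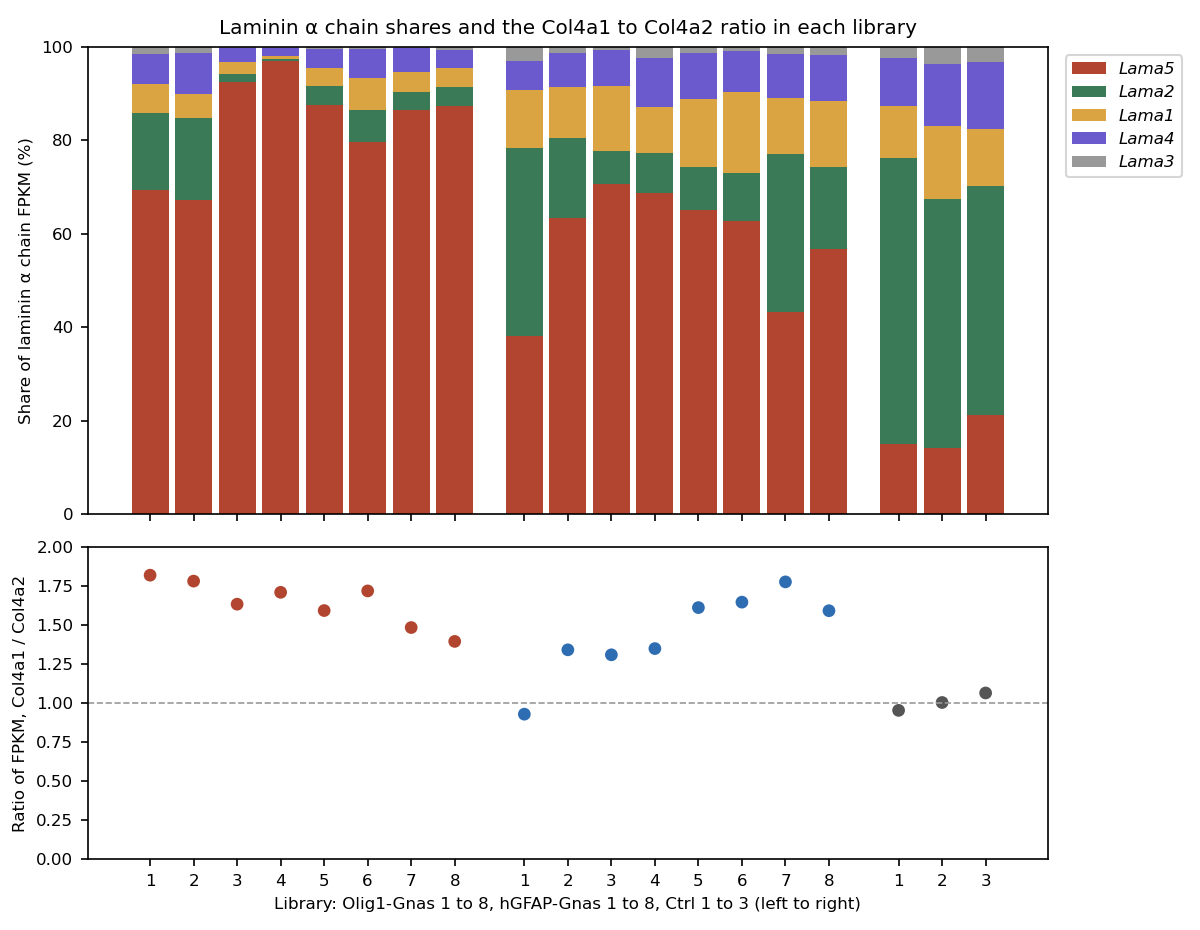
Share of each laminin α gene in the summed α chain FPKM (top, %) and the ratio of Col4a1 to Col4a2 FPKM (bottom) in each Olig1-Gnas, hGFAP-Gnas and Ctrl library, from left to right. Lama5 makes up 67.2 to 97.0% in Olig1-Gnas, 38.1 to 70.7% in hGFAP-Gnas and 14.2 to 21.4% in Ctrl.

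The β and γ chains, which complete the laminin trimer, had smaller log2 differences than Lama5. Lamb1, the β1 chain of the early and widespread laminins, was lower in both knockouts, at 2.99 over 4.22 to 8.25 FPKM in Olig1-Gnas and 3.74 over 5.97 to 7.71 in hGFAP-Gnas, against 10.7, 9.11 and 10.96 in Ctrl. No knockout library reached a Ctrl library, and the log2 differences were -0.996 ± 0.25 (adjusted p = 0.0049) in Olig1-Gnas and -0.76 ± 0.20 (adjusted p = 0.0169) in hGFAP-Gnas. Without Ctrl 1, Ctrl 2 or Ctrl 3 the call in hGFAP-Gnas was lost, at adjusted p = 0.0563 to 0.0725. Lamb2, the β2 chain of mature vessels and synapses, ran from 1.92 over 8.94 to 15.4 FPKM in Olig1-Gnas and from 8.14 over 12.1 to 19.8 in hGFAP-Gnas, against 8.09, 9.76 and 9.93 in Ctrl, and was called in neither (adjusted p = 0.653 in Olig1-Gnas and 0.195 in hGFAP-Gnas).

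Lamc1, the γ1 chain of nearly all laminins, was higher in both knockouts. It ran from 10.2 over 11.7 to 16.4 FPKM in Olig1-Gnas and from 6.75 over 11.6 to 16.0 in hGFAP-Gnas, against 6.46, 7.49 and 6.76 in Ctrl. Olig1-Gnas did not overlap Ctrl, and in hGFAP-Gnas library 2 lay within the Ctrl range. The log2 differences were 0.74 ± 0.16 (adjusted p = 0.00188) in Olig1-Gnas and 0.67 ± 0.21 (adjusted p = 0.0294) in hGFAP-Gnas, and in hGFAP-Gnas the call was lost on quantile normalization (adjusted p = 0.0962) and on upper quartile scaling (0.0595). It was also lost without Ctrl 1, Ctrl 2, Ctrl 3, hGFAP-Gnas 4 or hGFAP-Gnas 8, at adjusted p = 0.0511 to 0.104. Lamc3, the γ3 chain found in retina and cortex surface, stood at 0.487 to 2.63 FPKM in Olig1-Gnas, 0.810 to 2.41 in hGFAP-Gnas and 1.25, 1.77 and 2.40 in Ctrl, with overlapping groups and neither difference called.

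Markers of cells that make basement membrane were compared beside type IV collagen and Lama5. The 9 endothelial markers summed to 48.7 to 110 FPKM in Olig1-Gnas, 35.4 to 104 in hGFAP-Gnas and 51.7 to 89.3 in Ctrl. Flt1 was lower in Olig1-Gnas, the other 8 were not called there and all 9 were not called in hGFAP-Gnas, and each was above 0 in some library of every group. The 8 pericyte and smooth muscle markers summed to 31.2 to 75.8 FPKM in Olig1-Gnas, 31.1 to 88.4 in hGFAP-Gnas and 30.8 to 49.8 in Ctrl. Of the 7 tested, Cspg4 and Acta2 were higher in both knockouts and Pdgfrb was lower in Olig1-Gnas. Type IV genes summed to 35.4 to 81.9 FPKM in Olig1-Gnas and 19.8 to 54.8 FPKM in hGFAP-Gnas, against 8.64 to 14.2 in Ctrl. Sums of the following markers were above Ctrl in every knockout library. Genes of dividing cells stood at 434 to 911 FPKM in Olig1-Gnas, 13.9 to 652 in hGFAP-Gnas and 1.81 to 2.12 in Ctrl. The 6 microglia and macrophage markers stood at 465 to 1697, 114 to 1035 and 53.6 to 79.5 FPKM in the same order. The 4 granule progenitor markers stood at 283.2 to 601.7, 22.96 to 628.2 and 4.942 to 7.218 FPKM. Olig1-Gnas 1 had the highest microglia and macrophage sum of its group and the lowest type IV sum. Olig1-Gnas 3 was the highest of its group for type IV genes, dividing cells and granule progenitors. In hGFAP-Gnas, library 1 was the lowest for type IV genes, dividing cells, microglia and macrophages, and granule progenitors. It was not the lowest for the endothelial or the pericyte and smooth muscle markers. The part of these cells in the result was not tested.

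The multiplexins, 2 basement membrane collagens whose ends release angiogenesis inhibitors, moved in opposite directions. Col15a1 was higher, at 3.13 over 4.84 to 7.62 FPKM in Olig1-Gnas and 1.71 over 5.74 to 6.68 in hGFAP-Gnas, against 0.497, 0.637 and 1.98 in Ctrl. Only hGFAP-Gnas 1, the lowest of the knockout libraries, lay below a Ctrl library. The log2 differences were 1.60 ± 0.28 (adjusted p = 0.00045) in Olig1-Gnas and 1.53 ± 0.35 (adjusted p = 0.012) in hGFAP-Gnas, the call in hGFAP-Gnas lost without Ctrl 1 or Ctrl 2 (0.0593 to 0.0634). Col18a1 was lower, at 3.75 over 8.67 to 14.9 FPKM in Olig1-Gnas and 8.20 over 13.4 to 25.0 in hGFAP-Gnas, against 42.6, 26.1 and 21.9 in Ctrl. Olig1-Gnas did not reach Ctrl, and in hGFAP-Gnas library 1 lay inside the Ctrl range. The log2 difference was -1.65 ± 0.39 (adjusted p = 0.00302) in Olig1-Gnas and -1.05 ± 0.35 (adjusted p = 0.0359) in hGFAP-Gnas. In hGFAP-Gnas the call was lost without any of 7 libraries, the 3 Ctrl and hGFAP-Gnas 3, 4, 5 and 6, at adjusted p = 0.0559 to 0.165.

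**Figure D4:**
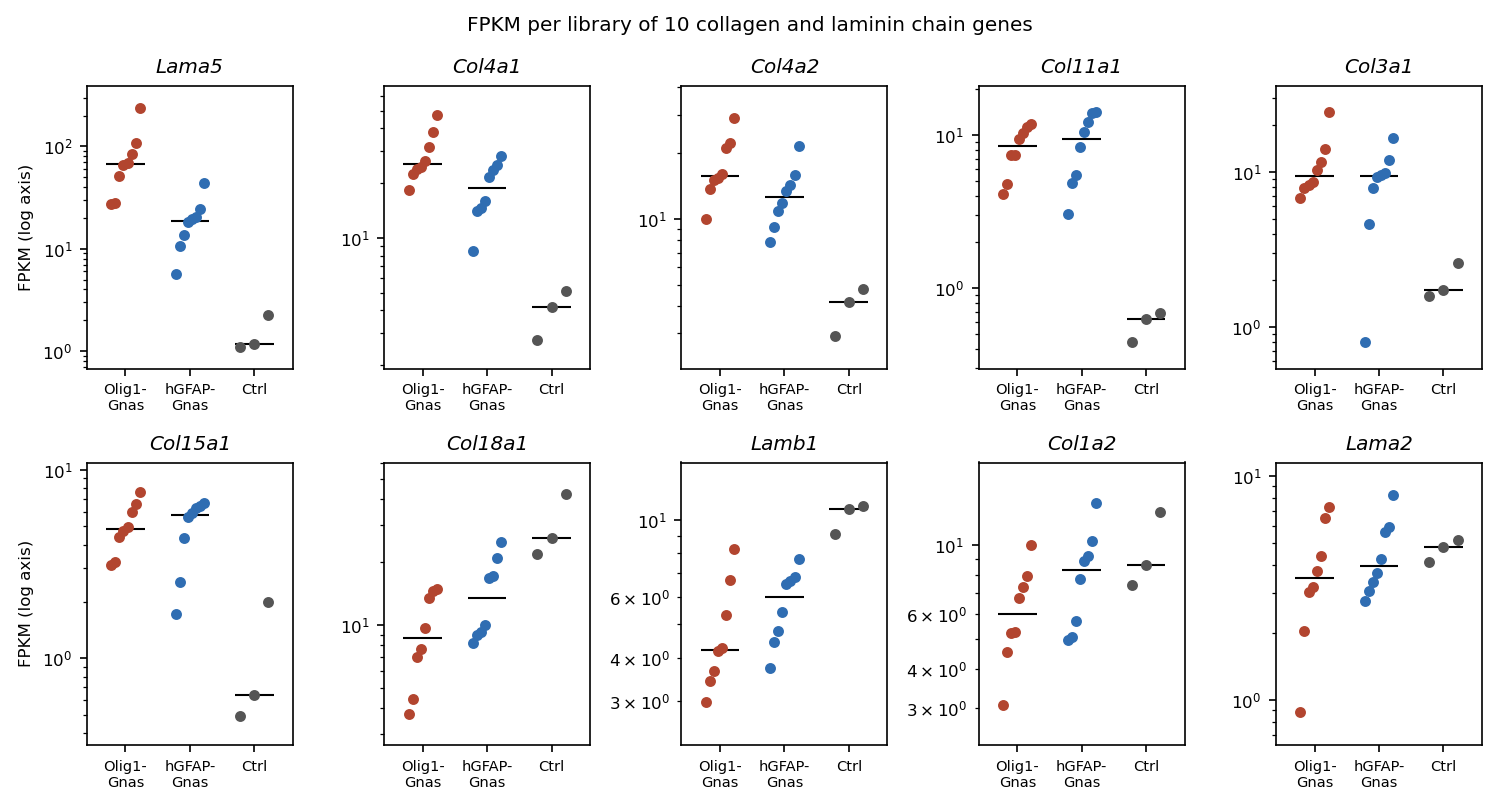
FPKM per library on log axes of 10 of the genes in Olig1-Gnas, hGFAP-Gnas and Ctrl, from left to right in each panel, with a bar at the median. Lama5, Col4a1, Col4a2 and Col11a1 lie above Ctrl in every knockout library, Lamb1 lies below, and Col1a2 and Lama2 overlap Ctrl.

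The 10 fibrillar genes split, with 4 higher and 1 lower in Olig1-Gnas and 3 higher and 1 lower in hGFAP-Gnas. Over all genes 35.3% were higher and 23.4% lower in Olig1-Gnas, and 25.8% higher and 12.5% lower in hGFAP-Gnas. Col11a1, a chain of the thin type XI fibrils that nucleate cartilage collagen, ran from 4.11 over 8.48 to 11.9 FPKM in Olig1-Gnas and from 3.06 over 9.40 to 14.1 in hGFAP-Gnas, against 0.444, 0.627 and 0.687 in Ctrl. The groups did not overlap, and the log2 differences were 2.50 ± 0.29 (adjusted p = 2.21e-05) in Olig1-Gnas and 2.53 ± 0.39 (adjusted p = 0.00594) in hGFAP-Gnas. Col11a1 reached 1 FPKM in no Ctrl library, so it could pass the minimum only through the knockouts. Col3a1, the type III chain of vessel walls and soft tissue, ran from 6.77 over 9.42 to 24.3 FPKM in Olig1-Gnas and from 0.794 over 9.48 to 16.6 in hGFAP-Gnas, against 1.58, 2.57 and 1.72 in Ctrl. Olig1-Gnas lay above Ctrl throughout, while hGFAP-Gnas 1 lay below all Ctrl libraries. The log2 difference was 1.99 ± 0.32 (adjusted p = 0.000215) in Olig1-Gnas and 1.52 ± 0.55 (adjusted p = 0.0488) in hGFAP-Gnas. The call in hGFAP-Gnas was lost without any of 9 libraries, the 3 Ctrl and hGFAP-Gnas 3 to 8, at adjusted p = 0.0685 to 0.143, on quantile normalization (0.0878) and on upper quartile scaling (0.0578).

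Type I collagen, the main fibril of skin, tendon and bone, was called in neither knockout. Col1a2 ran from 3.08 over 6.03 to 9.99 FPKM in Olig1-Gnas and from 4.96 over 8.32 to 13.6 in hGFAP-Gnas, against 8.65, 12.8 and 7.45 in Ctrl. All 3 groups overlapped, with log2 differences of -0.57 ± 0.28 (adjusted p = 0.0981) in Olig1-Gnas and -0.24 ± 0.29 (adjusted p = 0.51) in hGFAP-Gnas. In Olig1-Gnas it passed as lower on quantile normalization (adjusted p = 0.0432), on upper quartile scaling (0.0354) and without Olig1-Gnas 7 (0.0484). Col1a1, its partner, stood at 1.61 to 5.46 FPKM in Olig1-Gnas, 1.75 to 6.25 in hGFAP-Gnas and 2.28 to 3.87 in Ctrl, with log2 differences of -0.05 in Olig1-Gnas and 0.08 in hGFAP-Gnas. The ratio of Col3a1 to Col1a2 was 1.16 to 3.30 in Olig1-Gnas, 0.102 to 1.94 in hGFAP-Gnas and 0.183 to 0.230 in Ctrl, a ratio chosen after its values were seen.

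Type V collagen, which sets the width of type I fibrils, gave a different result for each of its 3 chains. Col5a2 was higher in Olig1-Gnas, at 2.04 over 3.26 to 15.6 FPKM there and 0.799 over 2.18 to 3.28 in hGFAP-Gnas, against 0.740, 0.922 and 1.23 in Ctrl. The values of 15.6 and 15.1 FPKM belonged to Olig1-Gnas 1 and 2, the most alike pair of that group, and the other 6 lay at 2.04 to 4.57. The log2 difference of 1.53 ± 0.53 (adjusted p = 0.0255) was lost without any one Ctrl library (0.0562 to 0.0837), and in hGFAP-Gnas it was 0.63 ± 0.23 (adjusted p = 0.0504), reaching 0.00403 without hGFAP-Gnas 1. Col5a3 was higher in both knockouts, at 2.07 over 2.63 to 5.69 FPKM in Olig1-Gnas and 2.94 over 3.89 to 5.71 in hGFAP-Gnas, against 1.28, 0.818 and 1.72 in Ctrl. The groups did not overlap, with log2 differences of 0.84 ± 0.25 (adjusted p = 0.0116; 0.0751 without Ctrl 2) in Olig1-Gnas and 1.16 ± 0.20 (adjusted p = 0.00701) in hGFAP-Gnas. Col5a1 was lower in Olig1-Gnas, at 1.34 to 3.70 FPKM there and 1.32 to 6.66 in hGFAP-Gnas, against 3.60 to 8.00 in Ctrl, with log2 differences of -0.85 ± 0.31 (adjusted p = 0.0314) in Olig1-Gnas and -0.78 ± 0.36 (adjusted p = 0.0962) in hGFAP-Gnas. The Olig1-Gnas call was lost without Ctrl 1, Ctrl 3, Olig1-Gnas 2 or Olig1-Gnas 5 (0.0503 to 0.195), and that of hGFAP-Gnas was gained without hGFAP-Gnas 1 (0.0106).

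The remaining fibrillar genes belong to cartilage in textbook accounts. Col27a1 ran from 3.64 to 8.71 FPKM in Olig1-Gnas and from 2.01 to 4.80 in hGFAP-Gnas, against 3.73 to 8.91 in Ctrl. Of the hGFAP-Gnas libraries only number 7 reached into the Ctrl range, and the gene was lower in that knockout by a log2 difference of -0.93 ± 0.25 (adjusted p = 0.0194), lost without Ctrl 1 or Ctrl 3 (0.067 to 0.103), but not called in Olig1-Gnas (-0.10 ± 0.27). Col11a2, the partner of Col11a1, had log2 differences of -0.60 (adjusted p = 0.15) in Olig1-Gnas and 0.12 (adjusted p = 0.735) in hGFAP-Gnas, and Col2a1, the main cartilage collagen, of -0.48 (adjusted p = 0.209) in Olig1-Gnas and -0.61 (adjusted p = 0.112) in hGFAP-Gnas. On quantile normalization Col2a1 passed as lower in hGFAP-Gnas (log2 difference -0.92, adjusted p = 0.0285). The 10 markers of meninges and fibroblasts, the usual source of fibrillar collagen in brain, summed to 33.2 to 224 FPKM in Olig1-Gnas, 64.8 to 182 in hGFAP-Gnas and 72.2 to 128 in Ctrl. Of the 9 tested, 5 were lower in Olig1-Gnas and 4 in hGFAP-Gnas, against 23.4% of all genes in Olig1-Gnas and 12.5% in hGFAP-Gnas. Ogn was at 0 in every library.

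Among the 7 fibril-associated genes, 1 was higher and 1 lower in Olig1-Gnas and 1 was higher in hGFAP-Gnas. The shares of all genes were 35.3% higher and 23.4% lower in Olig1-Gnas and 25.8% higher in hGFAP-Gnas. Col9a3, a chain of the type IX collagen that decorates cartilage fibrils, ran from 35.2 over 49.9 to 68.9 FPKM in Olig1-Gnas and from 6.65 over 40.7 to 69.6 in hGFAP-Gnas, against 18.7, 14.9 and 17.9 in Ctrl. Olig1-Gnas lay above Ctrl throughout (log2 difference 1.45 ± 0.20, adjusted p = 7.58e-05), while hGFAP-Gnas 1 lay below it (0.96 ± 0.54, adjusted p = 0.17). Without hGFAP-Gnas 1 the log2 difference in that knockout was 1.27 (adjusted p = 0.00252). The listed span of Col9a3 overlaps Tcfl5, and whether the counting used strand was not given in the sources used here. Tcfl5 itself stood at most at 0.304 FPKM in Olig1-Gnas, 1.17 in hGFAP-Gnas and 0.202 in Ctrl. Its partner chains gave other values: Col9a2 ran from 3.44 over 6.62 to 7.70 FPKM in Olig1-Gnas and from 4.41 over 7.18 to 8.88 in hGFAP-Gnas, against 6.69, 7.63 and 8.71 in Ctrl, and was not called. Col9a1 reached 1 FPKM in no Ctrl library and was not called (adjusted p = 0.153 in Olig1-Gnas and 0.0556 in hGFAP-Gnas), but passed in hGFAP-Gnas without library 1 (0.0227) or 7 (0.0384).

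Col16a1, a fibril-associated collagen of skin and smooth muscle, ran from 1.65 over 5.10 to 8.90 FPKM in Olig1-Gnas and from 4.21 over 6.90 to 19.3 in hGFAP-Gnas, against 1.95, 1.96 and 3.64 in Ctrl. Every hGFAP-Gnas library lay above Ctrl, and the gene was higher there by a log2 difference of 1.30 ± 0.36 (adjusted p = 0.0204), lost without Ctrl 1 or Ctrl 2 (0.0845 to 0.0849). In Olig1-Gnas the difference of 0.82 ± 0.36 (adjusted p = 0.0663) was not called, but passed without Olig1-Gnas 3, the lowest library (0.00836). Col19a1 was lower in Olig1-Gnas, at 0.109 to 1.18 FPKM there and 0.198 to 3.53 in hGFAP-Gnas, against 0.802 to 3.33 in Ctrl. Its log2 difference was -0.82 ± 0.28 (adjusted p = 0.0219) in Olig1-Gnas, lost without Ctrl 1 or Ctrl 2 (0.056 to 0.159), and -0.60 (adjusted p = 0.23) in hGFAP-Gnas, which passed without hGFAP-Gnas 1 (0.032). Col12a1 (adjusted p = 0.621 in Olig1-Gnas and 0.152 in hGFAP-Gnas) and Col20a1 (0.207 in Olig1-Gnas and 0.0893 in hGFAP-Gnas) were called in neither, and Col12a1 passed as higher in hGFAP-Gnas without library 1 (0.0465).

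Col28a1, a collagen with von Willebrand factor type A domains known from Schwann cells of peripheral nerve, was higher in both knockouts at a low level. It ran from 0.697 over 2.06 to 3.25 FPKM in Olig1-Gnas and from 0.305 over 1.07 to 1.96 in hGFAP-Gnas, against 0.0371, 0.367 and 0.251 in Ctrl. Olig1-Gnas lay above Ctrl throughout, and hGFAP-Gnas 1 lay within the Ctrl range. With no Ctrl library at 1 FPKM, the gene could pass the minimum only through the knockouts. The log2 difference was 1.29 ± 0.25 (adjusted p = 0.000961) in Olig1-Gnas and 0.75 ± 0.27 (adjusted p = 0.0457) in hGFAP-Gnas. For hGFAP-Gnas it was lost without any of 8 libraries, the 3 Ctrl and hGFAP-Gnas 3, 4, 5, 6 and 8 (0.0572 to 0.164), and on quantile normalization (0.275).

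Of the 3 transmembrane collagens, which sit in the cell membrane with the collagen part outside, the same 2 were lower in each knockout. Over all genes 23.4% were lower in Olig1-Gnas and 12.5% in hGFAP-Gnas. Col23a1 ran from 0.860 over 2.16 to 3.08 FPKM in Olig1-Gnas and from 1.78 over 2.25 to 3.99 in hGFAP-Gnas, against 5.35, 6.00 and 3.13 in Ctrl. Olig1-Gnas stayed below Ctrl and hGFAP-Gnas 3 exceeded Ctrl 3, with log2 differences of -0.97 ± 0.27 (adjusted p = 0.00768; 0.0511 without Ctrl 2) in Olig1-Gnas and -0.79 ± 0.22 (adjusted p = 0.0201; 0.0873 to 0.0986 without Ctrl 1 or Ctrl 2) in hGFAP-Gnas. Col17a1, a hemidesmosome collagen of skin, ran from 0 over 0.159 to 1.21 FPKM in Olig1-Gnas and from 0.0666 over 0.261 to 0.987 in hGFAP-Gnas, against 0.701, 1.78 and 1.08 in Ctrl. It reached 1 FPKM in only 3 libraries, the least that the selection allowed, and both groups overlapped Ctrl. Its log2 differences were -0.80 ± 0.25 (adjusted p = 0.0171; 0.103 without Ctrl 2) in Olig1-Gnas and -0.69 ± 0.21 (adjusted p = 0.0267; 0.0529 to 0.135 without any one Ctrl library) in hGFAP-Gnas. Col13a1, a collagen of the neuromuscular junction, ran from 0.235 over 0.702 to 2.17 FPKM in Olig1-Gnas and from 1.00 over 1.48 to 2.45 in hGFAP-Gnas, against 0.817, 0.844 and 1.09 in Ctrl, and was not called (adjusted p = 0.791 in Olig1-Gnas and 0.0942 in hGFAP-Gnas).

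No gene of types VI, VII or VIII was called in either knockout by limma, and none had an unadjusted p under 0.05 against Ctrl. Col6a1, of the beaded filaments around cells, ran from 5.45 over 7.18 to 19.9 FPKM in Olig1-Gnas and from 3.93 over 7.62 to 18.3 in hGFAP-Gnas, against 4.73, 7.21 and 4.56 in Ctrl, a difference that was not called (adjusted p = 0.156 in Olig1-Gnas and 0.33 in hGFAP-Gnas). Col6a2, its partner, ran from 2.34 over 3.32 to 7.08 FPKM in Olig1-Gnas and from 1.65 over 3.76 to 7.75 in hGFAP-Gnas, against 1.98, 2.61 and 2.15 in Ctrl. The groups overlapped, and in hGFAP-Gnas the gene passed only without library 1 (log2 difference 0.75, adjusted p = 0.0216). Col6a5, of skin and lung, reached 3.37, 2.86 and 1.23 FPKM in Olig1-Gnas 1, 2 and 8, at most 0.913 FPKM in hGFAP-Gnas and 0.0222 in Ctrl. With 3 libraries at 1 FPKM it was just inside the selection, was not called (adjusted p = 0.277 in Olig1-Gnas and 0.0992 in hGFAP-Gnas), and passed in hGFAP-Gnas without library 1 (0.0491).

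Col7a1, of the anchoring fibrils of skin, ran from 0.423 over 0.960 to 2.57 FPKM in Olig1-Gnas and from 0.491 over 1.16 to 3.12 in hGFAP-Gnas, against 1.59, 1.07 and 1.32 in Ctrl, so that the groups overlapped. The short-chain collagens Col8a1 and Col8a2, which form the lattice of Descemet's membrane in the eye, overlapped between all groups. Col8a1 held 0.420 to 3.49 FPKM in Olig1-Gnas and 0.287 to 2.21 FPKM in hGFAP-Gnas, against 0.259, 0.251 and 2.97 in Ctrl. Col8a2 stood at 0.0307 to 2.51 FPKM in Olig1-Gnas and 0.627 to 3.06 FPKM in hGFAP-Gnas, against 0.597, 0.900 and 3.68 in Ctrl. For Col8a2 the highest libraries, Olig1-Gnas 8, hGFAP-Gnas 8 and Ctrl 3, were also those with the highest summed level of 8 choroid plexus markers, at 2416 FPKM in Olig1-Gnas 8, 943.5 in hGFAP-Gnas 8 and 1280 in Ctrl 3. The median of that sum was 55.2 FPKM in Olig1-Gnas, 55.5 in hGFAP-Gnas and 27.5 in Ctrl. The part of choroid plexus tissue in these libraries was not tested.

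The 12 symbols below the minimum, of which none was tested, included Col10a1, Col14a1, Col22a1, Col24a1, Col25a1, Col4a3, Col4a4, Col6a4, Col6a6, Lama3 and Lamb3. Col10a1, a growth plate collagen, reached 6.16 FPKM in Olig1-Gnas 3 alone, and its listed span overlaps Nt5dc1. Lamb3, a β chain of skin laminin, was low: it reached at most 0.748 FPKM in a knockout library and was at 0.867 to 1.89 in Ctrl. With 2 libraries at 1 FPKM it lay just outside the selection. Of Col4a3 and Col4a4, chains of the kidney filter, Col4a4 reached 1 FPKM in 1 library, at 1.05 FPKM, and Col4a3 reached at most 0.433 FPKM.

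Between the knockouts 0 of the 41 genes were called by the same limma test, while 0.411% of all genes, or 60, were called. At an unadjusted p under 0.05 stood 8 of the 41 and 3447 of all genes. The difference nearest to a call was that of Col27a1, at 3.64 to 8.71 FPKM in Olig1-Gnas and 2.01 to 4.80 FPKM in hGFAP-Gnas, with a log2 difference of 0.83 ± 0.18 (adjusted p = 0.0572). Lama5, at 27.6 to 238 FPKM in Olig1-Gnas and 5.61 to 43.4 FPKM in hGFAP-Gnas, differed by 1.92 ± 0.42 (adjusted p = 0.0598). Both sets overlapped, and both genes passed when all 19 libraries were fitted at once (adjusted p = 0.0401 for Col27a1 and 0.0293 for Lama5). Leaving out 1 library also brought either past the threshold: Col27a1 without Olig1-Gnas 5 or hGFAP-Gnas 7 (0.0447 to 0.0499), and Lama5 without Olig1-Gnas 1 or hGFAP-Gnas 3 (0.0402 to 0.0464). Col4a1 (0.61 ± 0.23, adjusted p = 0.169), Col5a2 (0.90 ± 0.35, adjusted p = 0.171) and Col11a2 (-0.73 ± 0.23, adjusted p = 0.138) came next.

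The partner genes were counted by list, against 35.3% of all genes higher and 23.4% lower in Olig1-Gnas and 25.8% higher and 12.5% lower in hGFAP-Gnas. Of 17 genes of collagen hydroxylation and folding, steps that precede secretion, 8 were higher and 1 lower in Olig1-Gnas (median log2 difference 0.72) and 9 were higher in hGFAP-Gnas (0.57). Those that changed most were Plod2, a lysyl hydroxylase (1.96 ± 0.25 in Olig1-Gnas and 1.59 ± 0.48 in hGFAP-Gnas), and Ppib, a prolyl isomerase (1.95 ± 0.18 in Olig1-Gnas and 1.68 ± 0.43 in hGFAP-Gnas). P4hb, the β subunit of prolyl 4-hydroxylase, and Leprel1, a prolyl 3-hydroxylase, were also higher in both, and P4ha2 was lower in Olig1-Gnas. Outside the cell, processing and crosslinking enzymes went both ways, with 3 higher and 5 lower of 11 tested in Olig1-Gnas and 2 higher and 3 lower in hGFAP-Gnas. Adamts14, a procollagen N-proteinase, averaged 22.5 FPKM in Olig1-Gnas, 14.7 in hGFAP-Gnas and 0.0926 in Ctrl (log2 differences 4.39 ± 0.21 in Olig1-Gnas and 3.55 ± 0.61 in hGFAP-Gnas). Adamts2, the enzyme of the same step in skin, was lower, at 0.597 FPKM in Olig1-Gnas, 1.23 in hGFAP-Gnas and 4.96 in Ctrl (-1.90 ± 0.18 in Olig1-Gnas and -1.47 ± 0.27 in hGFAP-Gnas). The third of this family, Adamts3, was lower in Olig1-Gnas (-2.02 ± 0.28).

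Genes of collagen breakdown were higher on 6 of 12 tested and lower on 1 in each knockout, with median log2 differences of 0.86 in Olig1-Gnas and 1.02 in hGFAP-Gnas. Mmp2, a gelatinase that cuts type IV collagen, averaged 17.2 FPKM in Olig1-Gnas, 14.4 in hGFAP-Gnas and 0.956 in Ctrl (3.20 ± 0.25 in Olig1-Gnas and 2.71 ± 0.63 in hGFAP-Gnas). Its activator Mmp14, Mmp3 and the inhibitor Timp1 were higher too, and Timp4 was the lower one. Of 12 partners of the basement membrane, 6 were higher in Olig1-Gnas and 5 in hGFAP-Gnas. They included Smoc1 (2.99 ± 0.23 in Olig1-Gnas and 2.67 ± 0.56 in hGFAP-Gnas), Fbln2 (2.44 ± 0.30 in Olig1-Gnas and 1.69 ± 0.33 in hGFAP-Gnas) and Pxdn, the peroxidase that crosslinks type IV collagen (1.70 ± 0.20 in Olig1-Gnas and 1.30 ± 0.39 in hGFAP-Gnas). Among 10 tested partners of fibrils and interstitial matrix, 2 were higher and 2 lower in each knockout. Of 13 receptors, 4 were higher and 2 lower in Olig1-Gnas and 5 higher and 1 lower in hGFAP-Gnas. Itgb1, the shared β1 subunit of collagen and laminin integrins, averaged 86.0 FPKM in Olig1-Gnas, 62.1 in hGFAP-Gnas and 20.01 in Ctrl (2.02 ± 0.18 in Olig1-Gnas and 1.48 ± 0.37 in hGFAP-Gnas), and Ddr2, a receptor of fibrillar collagen, was higher (2.84 ± 0.19 in Olig1-Gnas and 2.43 ± 0.57 in hGFAP-Gnas). Itga3, an α subunit that binds laminin, was lower (-2.86 ± 0.45 in Olig1-Gnas and -1.76 ± 0.59 in hGFAP-Gnas).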

How the data were processed

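RNA from whole cerebellum was made into TruSeq libraries and sequenced on an Illumina HiSeq, per the labels' protocols. The authors deposited FPKM per gene and library, made with TopHat and Cufflinks on mm9 per the submitters' processing notes, in a table of Olig1-Gnas and a table of hGFAP-Gnas that both list the 3 Ctrl libraries. The sources used here give no tool versions, annotation, strandedness or read totals. FPKM keeps no counts, so no counting interval is given, and an exact 0 can be a failed estimate.

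Ctrl 1 differed between the tables in 5106 genes, by at most 0.0332% in any of the 41 genes, so the scale was taken as common. Outside the 41 genes the difference could be larger. Col10a1 read 0.0864 FPKM in Ctrl 1 of the Olig1-Gnas table and 0.0900 in that of the hGFAP-Gnas table, and Gnas differed as given above. Each comparison with Ctrl used its own table. The 14591 genes at 1 FPKM or more in 3 or more of 19 libraries were fitted as log2(FPKM + 1) with limma 3.58.1 (trend, robust) in R 4.3.3. Benjamini-Hochberg adjustment ran over all of them. The offset of 1 makes the differences of low genes smaller than their ratios. The scripts were tested on simulated data. The 41 genes, the partner lists and the marker lists were chosen with earlier results of these data known. Values per library are given for the 3 highest genes of each role and the 10 largest called differences of each comparison, and partner genes are named when called, at most 4 a list by size of difference. Replicate numbers did not pair the samples. Alternatives changed the offset, filter, scaling, moderation, threshold, depth class and libraries. Promoters came from the RefSeq table on GRCm38.p6 and the listed gene spans from mm9, and coordinates of the builds were not mixed. Some results on genes below the minimum are not reported here. Figures were drawn with matplotlib 3.10.9.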

Additional observations from a re-analysis of the deposited data

Results flagged for a closer look

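In 17 of 82 sets of 8 knockout libraries of 1 gene, the highest library lay further from the next than Dixon's critical ratio of 0.526 allows. In each case the distant library was the highest one. The ratio was taken on FPKM without a log scale, and its chance rate of about 1 in 20 holds for normally distributed values. Whether FPKM are so distributed was not tested, so the 17 of 82 cannot be read against that rate. In Olig1-Gnas, library 8 held 24.28 FPKM of Col3a1 (next 14.1), 5.688 of Col5a3 (3.733), 2.509 of Col8a2 (0.9579) and 1.212 of Col17a1 (0.5086). Library 4 of that group held 238.0 FPKM of Lama5 (108.3) and 5.509 of Col20a1 (2.575), library 6 held 19.93 of Col6a1 (10.89), and library 7 held 2.63 of Lamc3 (1.376). In hGFAP-Gnas, library 1 held 6.656 FPKM of Col5a1 (3.529) and 3.531 of Col19a1 (1.462), and library 2 held 0.9866 of Col17a1 (0.4793). Library 3 of that group held 19.29 FPKM of Col16a1 (9.386), 18.28 of Col6a1 (8.749) and 3.991 of Col23a1 (2.416). Library 7 held 4.805 FPKM of Col27a1 (3.162), and library 8 held 2.212 of Col8a1 (0.8695) and 3.063 of Col8a2 (1.685).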

How the results depend on the processing

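No called gene changed sign under any alternative, and 88 results called in neither fit had another sign. Of the 19 genes called in Olig1-Gnas, 13 kept the call without every single library. In every alternative that tested them, 5 kept it (Col3a1, Col11a1, Col4a1, Col9a3 and Col28a1), which for Col28a1 leaves out the minimum of 5 FPKM. Of these 5, Col11a1 and Col28a1 reached 1 FPKM in no Ctrl library and could pass the minimum only through the knockouts. Of the 16 called in hGFAP-Gnas, 5 (Col11a1, Col5a3, Col4a1, Col4a2 and Lama5) kept the call without every single library and 0 in every alternative. With 1 library left out, the highest adjusted p of each of these 5 lay at 0.047 to 0.0478, just under the threshold. For Olig1-Gnas against Ctrl, 8 genes were higher and 2 lower of the 21 tested with a minimum of 5 FPKM (62.8% of all genes called), 3 were lower in the deeper libraries alone (43.9%), 5 were higher in the shallower libraries alone (39.7%; 1 Ctrl library was left and was assumed to vary like the others) and 3 were lower at an adjusted p under 0.01. In those shallower libraries the Lama5 call was lost (log2 difference 4.38, adjusted p = 0.0546). The share of all genes called in Olig1-Gnas at an adjusted p under 0.01 is not given here, so the count at that threshold has no background beside it. Leaving out 1 library gave 11 to 14 higher and 3 to 7 lower, the 3 without Ctrl 2. Of all genes, 49.2% (without Ctrl 2) to 66.2% (without Olig1-Gnas 6) were then called. For hGFAP-Gnas against Ctrl, 3 of the 21 were lower with a minimum of 5 FPKM (40.6% of all genes called) and 7 of the 41 higher on quantile normalization (36.5%). With Ctrl 1 and 2 averaged, 5 were higher and 0 lower by limma, with 17 of the 41 at an unadjusted p under 0.05, and 927 genes were called in all. In the shallower libraries 5 were higher and 1 lower, with 2327 genes called in all, and at an adjusted p under 0.01 these numbers were 5, 0 and 903. The deeper libraries gave 0 higher and 0 lower by limma, with 11 of the 41 at an unadjusted p under 0.05, and 11 genes in all. Leaving out 1 library gave 5 to 18 higher, 0 to 7 lower and 786 to 8259 genes in all, the most without hGFAP-Gnas 1 and the fewest in all without Ctrl 2. Between the knockouts, 1 gene was higher on quantile normalization and 1 without trend and robust moderation, 2 with 1 fit over 19 libraries (178 in all) and 2 with depth class as a term (166 in all). The deeper libraries gave 3 genes in all, the averaging of near-alike libraries (Olig1-Gnas 1 and 2, hGFAP-Gnas 5 and 6, also chosen after seeing the data) 23, and an adjusted p under 0.01 gave 10. Leaving out 1 library gave 0 to 1 higher and 11 to 103 genes in all. Same-numbered libraries had correlations of -0.171 to 0.254, so the replicate block is only a check on a shared number. With it, 14 genes were higher and 5 lower in Olig1-Gnas (57.7% of all genes called). In hGFAP-Gnas 0 were then higher and 0 lower by limma (0 in all, with 11 of the 41 and 2622 of all genes at an unadjusted p under 0.05). Between the knockouts 1 was higher (25 in all). The cause of these changes was not tested. Read depth is unknown, so no counting error is given.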
